A study of Mus musculus with 26 samples.

Results

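EA3 is a mouse lung cancer cell line driven by the EML4-ALK fusion, and the comparison described here is alectinib against its solvent in EA3 cultures, made in 4 pairs of libraries out of 26 libraries in the series. The EA3 members are the 8 RNA sequencing libraries labelled EA3 on days 1, 2, 3 and 5, 4 with 100 nM alectinib and 4 with 0.1% DMSO, each pair from the same day. These days are those of the sample labels, while the treatment protocol lists days 1, 3, 5 and 7. All groups carry the EML4-ALK genotype, and per the methods of the study EA3 arose in a C57BL/6 mouse, from a lung tumor induced by an adenovirus with Cas9 and guides to Eml4 and Alk and passaged until an epithelial line was stable. EA1 and EA2, each from another mouse, were treated in the same way on the same days and give 8 libraries each, which were used to share the estimate of spread and to ask where EA3 differed. EA3 is 1 line from 1 lineage of tumor cells, and there was 1 library per treatment and day, so that the 4 days serve as replicates and p-values measure the spread between days, not between repeated cultures.

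EML4-ALK joins the coiled coil of EML4 to the kinase of ALK, which makes the kinase active without a ligand. The fusion signals through RAS and the MAPK cascade, and also through PI3K and STAT3. The MAPK cascade drives ETS factors of the PEA3 group and switches on its own inhibitors, among them the phosphatase DUSP6 and the Sprouty and Spred proteins. Alectinib occupies the ATP pocket of ALK and is used to treat patients with ALK-positive lung cancer.

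In EA3, alectinib lowered 5 EGF-family ligands and most MAPK output, glycolysis and hypoxia, ATF4 response and ribosome biogenesis genes tested. It raised most tested interferon-stimulated and contractile genes, the contractile genes beside a rise in fibroblast markers, as well as Csf1 and Tgfb2. Of 14264 genes tested with edgeR (quasi-likelihood test, Benjamini-Hochberg adjusted p under 0.05), 2493 were higher with alectinib, which is 17.5% of those tested, and 2157 were lower, which is 15.1%. A log2 fold change of 1 or more in either direction was reached by 1414 of the higher genes and 1011 of the lower genes. The log2 ratio had 1 sign on all 4 days for 4342 of the 4650 called genes. The alectinib libraries all lay above the DMSO libraries for 12.9% of tested genes and all below for 10.7%. The median log2 fold change of all genes tested was 0.07. When counts were scaled by library size and not by TMM, 3060 genes were higher and 1666 lower, a share of 64.7% higher against 53.6%, and the median of all genes was 0.18. Levels of single genes are TMM-scaled CPM, counts relative to a library size adjusted for composition. The 3-count floor and the sums over marker lists are instead in CPM by library size alone. Below, 4 values stand in the order of days 1, 2, 3 and 5. Levels over days within a treatment rest on 1 library per day and were not tested. Log2 fold changes are alectinib minus DMSO, fitted with each day as a block. They are given ± SE from the fit of 24 libraries, in which the 3 lines share the estimate of spread. The log2 fold changes of Spry4, Aldh1a3, Grem1, Ifit2, Ccl7 and Ccl5, with 3 or fewer counts in 2 or more libraries of a treatment, are not exact in size.

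**Figure D1:**
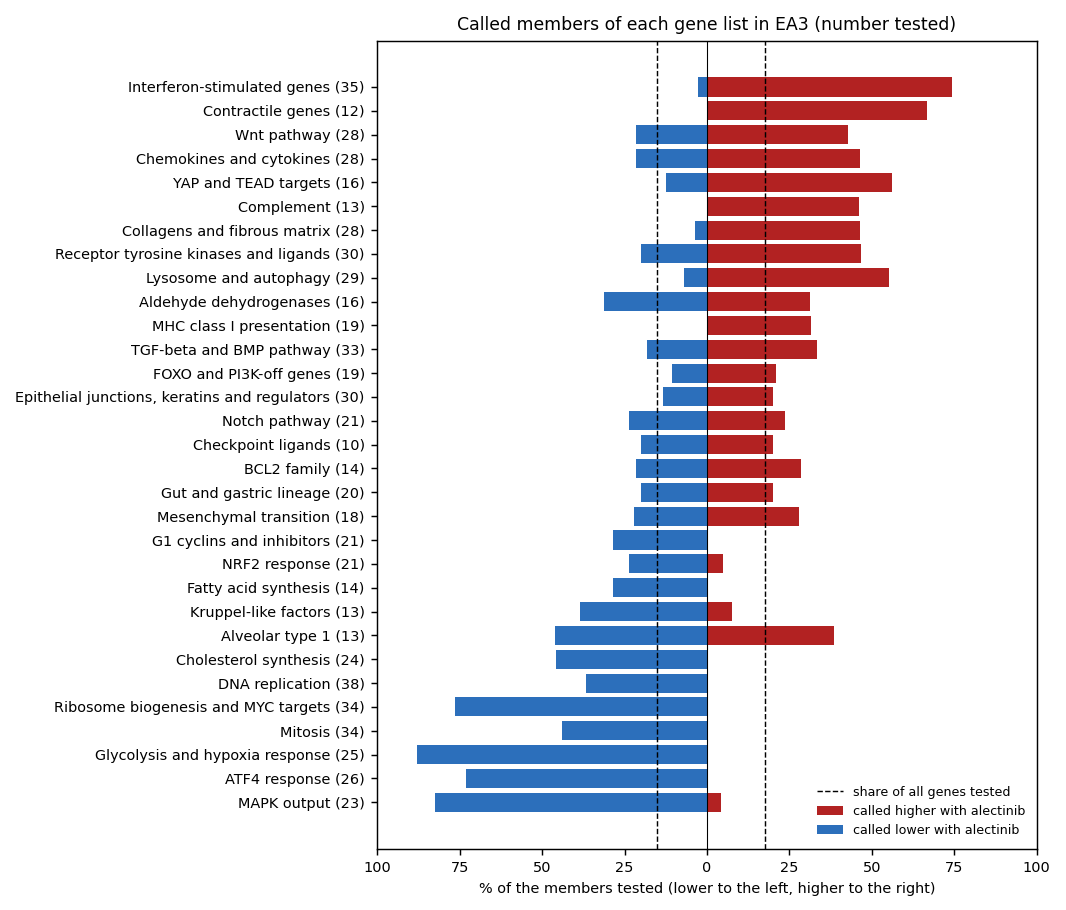
For gene lists with at least 10 tested members, the bars give the share of tested members called higher (right, red) or lower (left, blue) with alectinib in EA3, in percent on both sides of 0, and the dashed lines give the same shares over all genes tested, 17.5% and 15.1%. The number tested stands in brackets. MAPK output, ATF4 response, glycolysis and ribosome biogenesis genes were mostly lower, and interferon-stimulated and contractile genes mostly higher.

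The EA3 libraries held 6606091 to 11251905 counts with DMSO and 8977031 to 10403905 with alectinib, and 3 counts, taken as the floor of detection, were 0.267 to 0.454 CPM. Correlations were taken over the 14335 genes that passed the filter with all 26 libraries. Each mean is of libraries of the same treatment on days 1 to 5, without the library compared. Each EA3 library correlated at 0.953 to 0.986 with the EA3 mean and at 0.843 to 0.895 with the EA2 mean. The 2 libraries labelled EA3 day 7 correlated at 0.967 and 0.986 with EA2 and at 0.887 and 0.876 with EA3, and they were kept out. The line carried epithelial transcripts but not the defining marker of alveolar type 2 cells, since Sftpc had 0 counts in all 8 libraries. The summed level of the epithelial marker list was 4662 to 6264 CPM with DMSO and 7063, 5141, 3522 and 3073 CPM with alectinib. Ptprc, the leukocyte marker CD45, had at most 2 counts in any library. The summed level of the 11 immune markers was 7.63, 24.4, 40.3 and 89.0 CPM with DMSO and 10.8, 14.4, 30.9 and 9.90 CPM with alectinib, and neither of the 2 tested, Csf1r and Cd68, was called. The summed level of the fibroblast marker list was 19.96, 18.1, 12.6 and 9.37 CPM with DMSO and 88.2, 141, 165 and 294 CPM with alectinib. The alectinib library of day 5 stood apart on several genes described below.

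The fusion transcript carries the kinase end of Alk behind the start of Eml4, and counts per gene do not part the fusion from the intact genes. Alk, on chromosome 17 of mm10 from 71868972 to 72604627, was at 86.05, 77.3, 99.9 and 69.2 CPM with DMSO and at 49.9, 55.7, 52.6 and 52.2 CPM with alectinib. The groups did not overlap, and Alk fell by 0.65 on the log2 scale (SE 0.13, edgeR adjusted p = 0.00231). Eml4, on chromosome 17 from 83350931 to 83480361, was at 52.2, 21.5, 68.6 and 34.4 CPM with DMSO and at 36.2, 32.9, 35.1 and 35.3 CPM with alectinib, and its log2 fold change of -0.22 ± 0.21 did not pass (edgeR adjusted p = 0.436).

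Most MAPK output genes fell. Of the 23 members of this list, all tested, 19 were lower and 1 was higher, with a median log2 fold change of -1.60. Dusp6, an ERK phosphatase on chromosome 10 from 99263231 to 99267489, was at 188, 309.9, 255 and 265 CPM with DMSO and 18.3, 22.6, 49.1 and 21.6 CPM with alectinib. Every alectinib library lay below every DMSO library (log2 fold change -3.28 ± 0.31, edgeR adjusted p = 1.26e-05). Spry4, a feedback inhibitor of receptor signaling, had 165, 169, 862 and 410 counts with DMSO and 2, 2, 26 and 13 with alectinib. That is 14.8, 19.7, 114 and 67.6 CPM against 0.185, 0.218, 2.45 and 1.41 CPM and a log2 fold change of -5.74 ± 0.45 (edgeR adjusted p = 4.13e-06), and both treatments were highest on day 3. The PEA3 factor Etv5, on chromosome 16 from 22381309 to 22439719, went from 88.4, 61.2, 129.7 and 61.95 CPM to 1.39, 2.18, 7.62 and 5.52 CPM (log2 fold change -4.49 ± 0.38, edgeR adjusted p = 5.61e-06). Etv4, on chromosome 11 from 101769742 to 101785371, was at 96.9, 117, 95.5 and 73.3 CPM with DMSO and 4.99, 6.11, 15.4 and 1.84 CPM with alectinib, and its groups were separate on all days.

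The AP-1 subunits Fosl1 and Fos fell as well. Fosl1 was at 26.02, 19.01, 56.2 and 51.2 CPM with DMSO and 2.402, 1.31, 6.21 and 4.11 CPM with alectinib (log2 fold change -3.49 ± 0.26, edgeR adjusted p = 2.97e-06), but 57.2% of its exon sequence overlaps Ccdc85b, an antisense gene, and which strand was counted is not given in the sources used here. Fos was at 2.51, 7.81, 37.1 and 88.3 CPM with DMSO and 0.739, 1.200, 3.01 and 4.65 CPM with alectinib. Its groups overlapped, and the DMSO library of day 1 was the low one (log2 fold change -3.27 ± 0.40, edgeR adjusted p = 7.83e-05). Spred3, another inhibitor of RAS signaling, was at 31.5, 47.6, 45.7 and 61.6 CPM and 8.87, 11.1, 20.4 and 24.5 CPM (log2 fold change -1.60 ± 0.24, edgeR adjusted p = 0.000293). Myc, which the list also holds, was at 313, 355, 392 and 356 CPM and 187, 158, 259 and 114 CPM (log2 fold change -1.04 ± 0.24, edgeR adjusted p = 0.00486). The 1 member that rose was Epha4, an ephrin receptor, at 107, 41.5, 74.8 and 25.4 CPM with DMSO and 138, 135, 146 and 85.5 CPM with alectinib (log2 fold change 1.19 ± 0.25, edgeR adjusted p = 0.00275).

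**Figure D2:**
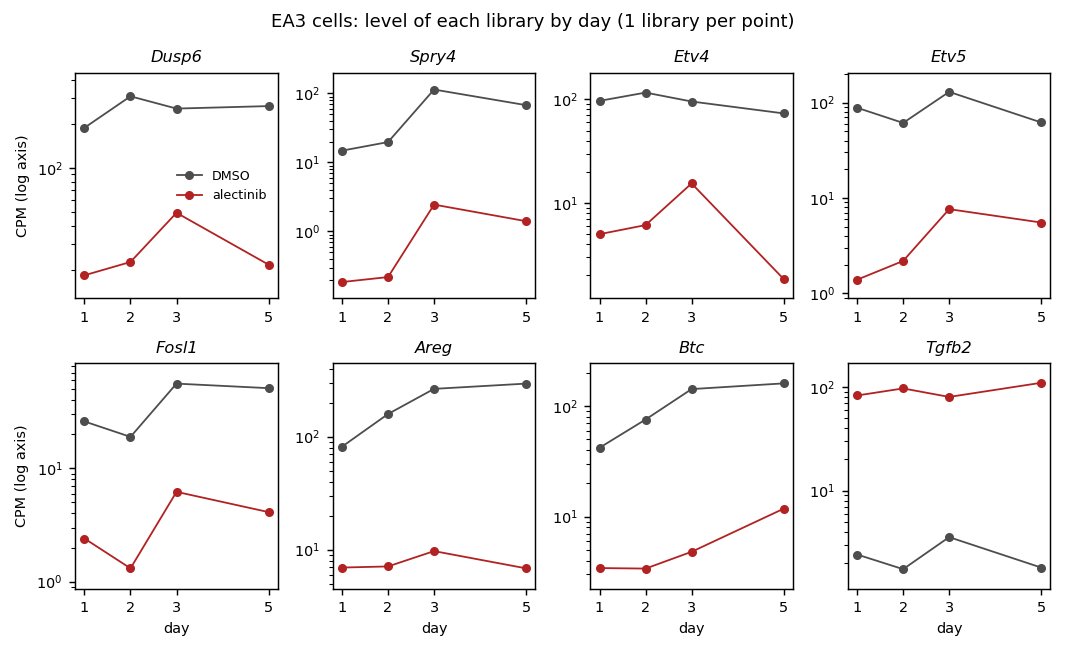
CPM on a log axis against day for MAPK output genes, the EGF-family ligands Areg and Btc, and Tgfb2 in EA3, with 1 library per point, DMSO in grey and alectinib in red. The lines only join libraries of one treatment. Both treatments of Spry4 moved together over days, and Dusp6 with alectinib stayed between 18.3 and 49.1 CPM while all DMSO libraries lay at 188 CPM or above.

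Receptor tyrosine kinases and their ligands went in both directions. Among 30 tested receptor tyrosine kinases and ligands, of 36 in the list, 14 were higher and 6 lower, and 5 of the 6 lower genes were the EGF-family ligands Areg, Btc, Ereg, Hbegf and Tgfa, grouped after their values were seen. Nrg1, a ligand of the same receptor family, rose (log2 fold change 1.11 ± 0.21, edgeR adjusted p = 0.00133), and Epgn was too low to test. Areg encodes amphiregulin and lies on chromosome 5 from 91139599 to 91148432. It was at 81.5, 159, 265 and 295 CPM with DMSO and 6.93, 7.09, 9.69 and 6.82 CPM with alectinib, and the DMSO level was higher on each later day (log2 fold change -4.56 ± 0.36, edgeR adjusted p = 3.95e-06). Btc, betacellulin, lies nearby on chromosome 5 from 91357261 to 91402994 and was at 42.1, 75.8, 143 and 161 CPM and 3.42, 3.38, 4.799 and 11.8 CPM (log2 fold change -4.18 ± 0.32, edgeR adjusted p = 3.13e-06). Ereg was at 34.1, 28.3, 152 and 57.8 CPM and 9.98, 12.4, 24.4 and 17.9 CPM, and its groups did not overlap (log2 fold change -1.84 ± 0.29, edgeR adjusted p = 0.000498). Hbegf and Tgfa fell less, with log2 fold changes of -1.50 ± 0.24 and -1.48 ± 0.26 (edgeR adjusted p = 0.000492 and 0.000842), and neither overlapped. Fgf2, the remaining lower gene, was at 10.8, 20.2, 54.6 and 19.6 CPM and 3.88, 3.05, 12.2 and 7.79 CPM.

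Without day 2, 9 members of the list were called higher, and without day 5, 8, with 6 lower in both. On the receptor side, Egfr was at 19.2, 16.4, 34.4 and 30.3 CPM with DMSO and 57.9, 56.1, 71.4 and 41.4 CPM with alectinib, all alectinib libraries above all DMSO libraries (log2 fold change 1.22 ± 0.24, edgeR adjusted p = 0.00208). Met, the receptor for hepatocyte growth factor, was at 249.5, 93.9, 153 and 138 CPM and 359, 341, 233 and 403 CPM and was higher on 4 of 4 days (log2 fold change 1.13 ± 0.22, edgeR adjusted p = 0.00177). Fgfr2 was at 0.897, 1.52, 2.51 and 2.64 CPM and 8.96, 11.01, 12.4 and 34.3 CPM (log2 fold change 3.03 ± 0.33, edgeR adjusted p = 0.000117). Its highest value was the alectinib library of day 5. The median of the 30 members was 0.49, and 0.44 with members at 3 or fewer counts in a group set to the bound those counts allow.

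Sesn3, a FOXO target that encodes a sestrin, and Bmf, a BH3-only gene of the BCL2 family, rose. Sesn3 was at 47.3, 37.4, 60.03 and 35.1 CPM and 169.8, 216, 137 and 259.6 CPM (log2 fold change 2.11 ± 0.29, edgeR adjusted p = 0.000174), and Bmf at 11.6, 55.5, 52.4 and 70.7 CPM and 106, 152, 81.4 and 315 CPM (log2 fold change 1.84 ± 0.45, edgeR adjusted p = 0.00761). Neither gene's groups overlapped. Over the whole lists there was little shift, with 4 higher and 2 lower of 19 tested FOXO and PI3K-off genes and 4 higher and 3 lower of 14 tested BCL2 family genes. Their medians were 0.13 and 0.02. Without day 3, 7 FOXO and PI3K-off genes were called higher.

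Glycolysis and hypoxia genes were lower with alectinib, and their level in DMSO was higher on later days. Of 25 members, all tested, 22 were lower and 0 higher, with a median log2 fold change of -1.42. The median change in level of its genes from day 1 to day 5 was 1.65 on the log2 scale in DMSO and 0.64 with alectinib. The daily median of the log2 ratio was -0.59 on day 1, -1.35 on day 2, -1.49 on day 3 and -1.75 on day 5. Slc16a3, the lactate exporter MCT4 on chromosome 11 from 120948480 to 120960868, was at 212, 476, 592 and 592 CPM and 54.5, 58.8, 155 and 152 CPM, with separate groups (log2 fold change -2.21 ± 0.27, edgeR adjusted p = 9.17e-05). Ldha, lactate dehydrogenase A, was at 1646, 2453, 1726 and 3085 CPM and 719, 668, 646 and 964 CPM (log2 fold change -1.54 ± 0.21, edgeR adjusted p = 0.000191). Pkm, pyruvate kinase, was at 3404, 4244, 3244 and 4454 CPM and 2061, 1892, 1466 and 2088 CPM (log2 fold change -1.03 ± 0.16, edgeR adjusted p = 0.000329). Pgk1, phosphoglycerate kinase, was at 596, 1095, 1606 and 2634 CPM with DMSO and 359, 393, 389.6 and 693 CPM with alectinib (log2 fold change -1.55 ± 0.25, edgeR adjusted p = 0.000604). Hif1a, the oxygen-regulated factor, was at 439.6, 692, 1022 and 810.0 CPM and 189.7, 254, 332 and 566 CPM (log2 fold change -1.20 ± 0.21, edgeR adjusted p = 0.000884). Vegfa, which is also held by the chemokine and alveolar type 1 lists, was at 186, 573, 1446 and 2993 CPM and 136, 195, 514 and 386 CPM, and its log2 fold change of -1.61 ± 0.46 (edgeR adjusted p = 0.018) was lost without day 2 (0.0546) or without day 5 (0.0907).

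Genes of the ATF4 response, named after a transcription factor that drives genes of amino acid supply, moved in the same way. Of 26 members, all tested, 19 were lower and 0 higher (median log2 fold change -1.49). In DMSO the median change in level of these genes was 1.42 on the log2 scale from day 1 to day 2, 1.84 from day 1 to day 3 and 1.29 from day 1 to day 5. With alectinib it was 0.10, 0.47 and 0.01. Slc7a11, the cystine transporter on chromosome 3 from 49892526 to 50443614, was at 122, 183, 652 and 173 CPM and 12.7, 10.5, 27.9 and 27.2 CPM (log2 fold change -3.65 ± 0.31, edgeR adjusted p = 5.61e-06). Psat1 and Shmt2 serve serine and glycine synthesis. Psat1 was at 361, 426, 532 and 231 CPM and 97.6, 83.6, 129 and 65.1 CPM (log2 fold change -2.03 ± 0.21, edgeR adjusted p = 2.35e-05), and Shmt2 at 272, 301, 277 and 159 CPM and 91.5, 89.97, 89.5 and 52.5 CPM (log2 fold change -1.64 ± 0.19, edgeR adjusted p = 5.95e-05). Cth, which makes cysteine, was at 5.29, 25.9, 51.5 and 27.2 CPM and 1.29, 1.42, 3.95 and 1.95 CPM (log2 fold change -3.49 ± 0.44, edgeR adjusted p = 0.000107). Atf4 itself was at 358, 921, 809 and 723 CPM and 235, 236, 333 and 186 CPM (log2 fold change -1.46 ± 0.26, edgeR adjusted p = 0.000943). The groups of Slc7a11, Psat1, Shmt2, Cth and Atf4 did not overlap, and those of Stc2, a secreted glycoprotein at 12.4, 49.7, 185 and 96.9 CPM and 1.76, 3.49, 10.3 and 26.3 CPM, did.

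**Figure D3:**
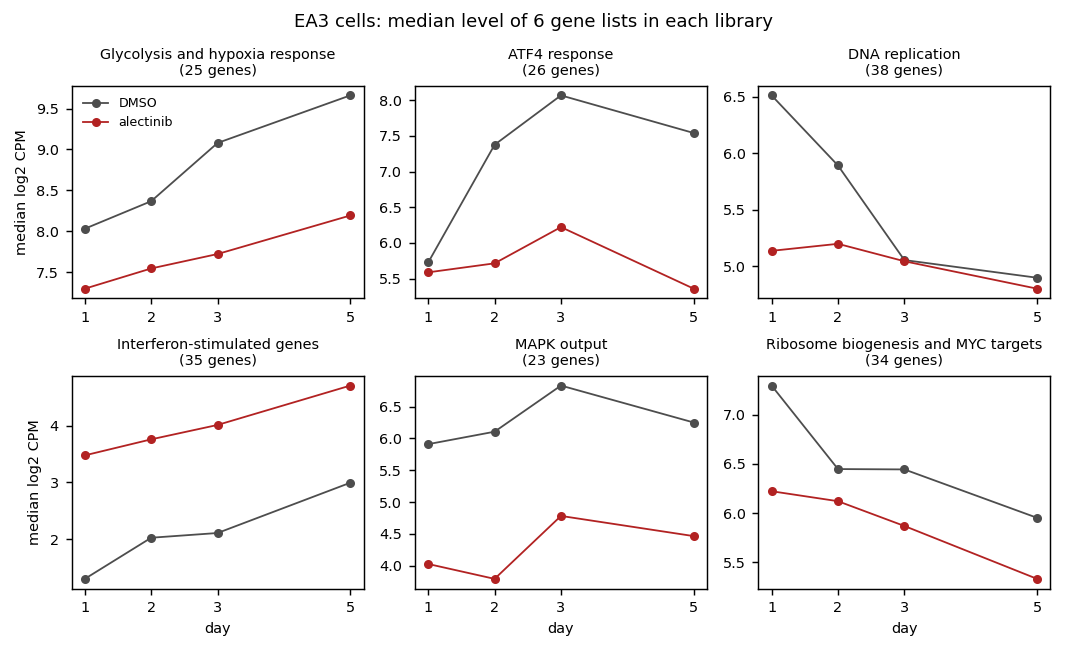
Median log2 CPM over the tested members of 6 gene lists in each EA3 library, against day, with DMSO in grey and alectinib in red, 1 library per point. Glycolysis and ATF4 response levels lay higher on later days in DMSO, the DNA replication level in DMSO was lower on later days and met that of alectinib on day 3, and the interferon-stimulated median was higher with alectinib on every day.

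The median of ribosome biogenesis genes was lower with alectinib on every day. Of 34 ribosome biogenesis and MYC target genes, all tested, 26 were lower and 0 higher (median log2 fold change -0.79). Without day 1, 15 were called lower. Npm1, a nucleolar chaperone, was at 1980.2, 1799.7, 1348 and 1567 CPM with DMSO and 848, 804, 692 and 630.1 CPM with alectinib, and all alectinib libraries lay below all DMSO libraries (log2 fold change -1.17 ± 0.14, edgeR adjusted p = 7.14e-05). Fbl, the methyltransferase fibrillarin, was at 193, 175, 115 and 92.6 CPM and 87.02, 71.4, 56.5 and 46.5 CPM (log2 fold change -1.11 ± 0.20, edgeR adjusted p = 0.00113). Gnl3, nucleostemin, was at 111, 80.5, 97.2 and 89.96 CPM and 49.1, 42.7, 65.2 and 32.5 CPM (log2 fold change -1.03 ± 0.18, edgeR adjusted p = 0.00097). For this list the 4 daily medians of the log2 ratio were all below 0, at -1.19, -0.65, -0.66 and -0.63.

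Replication and mitosis genes were lower in part, and the daily medians of both lists were furthest below 0 on day 1. Of 38 DNA replication genes 14 were lower and 0 higher (median log2 fold change -0.66), and of 34 mitosis genes 15 were lower and 0 higher (median -0.92). The median level of the replication genes in log2 CPM was 6.51, 5.89, 5.05 and 4.90 with DMSO and 5.13, 5.20, 5.04 and 4.80 with alectinib. The daily median of the log2 ratio was -1.42 on day 1 and -0.01 on day 3, and the DMSO level was lower on later days. Without day 1, 5 replication genes and 2 mitosis genes were called lower, and without day 2, 6 of each. Without day 5, 9 mitosis genes were. With library size alone, 8 replication and 12 mitosis genes were called lower, and without the filter on low counts 24 and 31. With day 7 added, 9 replication and 8 mitosis genes were. Cdt1, which licenses origins, kept its difference on every day, at 109.6, 95.98, 98.2 and 104 CPM and 31.5, 24.97, 31.7 and 20.5 CPM (log2 fold change -1.93 ± 0.17, edgeR adjusted p = 7.96e-06). Pcna, the sliding clamp, was at 323, 294, 127 and 172 CPM and 121, 108, 95.2 and 67.1 CPM (log2 fold change -1.16 ± 0.21, edgeR adjusted p = 0.00128). Cenpa, the centromeric histone, was at 125, 142, 61.1 and 60.96 CPM and 43.8, 30.97, 34.2 and 19.04 CPM (log2 fold change -1.56 ± 0.34, edgeR adjusted p = 0.0035), and Ube2c, which serves mitotic exit, at 252, 229, 96.2 and 101 CPM and 93.9, 71.1, 58.4 and 28.1 CPM (log2 fold change -1.42 ± 0.31, edgeR adjusted p = 0.00402). Ube2c shares 22.8% of its exon bases with Tnnc2 on the other strand. In bulk RNA, fewer cells in a phase and less RNA per cell cannot be told apart. Of 21 G1 cyclins and inhibitors 6 were lower and 0 higher, with a median of -0.11, but 5 were lower and 3 higher without day 3, and 4 were higher with library size alone.

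Cholesterol synthesis genes were lower in part, with 11 of 24 lower and 0 higher (median -0.66). Their daily medians were -0.05, -0.70, -0.25 and -1.55, so that day 5 carried the largest difference, and 4 genes were called without day 5, 6 without day 2 and 3 without the day block. Of 29 lysosome and autophagy genes, 16 were higher and 2 lower (median 0.45), and all 4 daily medians were between 0.39 and 0.61. With EA3 fitted alone 10 were higher, without the filter on low counts 11, without the day block 12, and with each day left out 12 to 15. Lamp1, a protein of the lysosomal membrane, was at 414, 408, 329 and 397 CPM and 709.8, 943, 709 and 830.1 CPM (log2 fold change 1.04 ± 0.13, edgeR adjusted p = 7.27e-05). Lamp2 was at 125, 172, 156 and 229.5 CPM and 233, 331, 254 and 417 CPM (log2 fold change 0.86 ± 0.13, edgeR adjusted p = 0.000347). Atp6v0d1, a subunit of the proton pump, was at 29.2, 40.1, 38.9 and 51.4 CPM and 80.8, 92.9, 88.3 and 91.6 CPM (log2 fold change 1.17 ± 0.15, edgeR adjusted p = 0.000112). The groups of these 3 genes did not overlap. Tfeb, a transcription factor for lysosome genes, was 1 of the 2 lower members, at 15.7, 32.8, 37.2 and 34.4 CPM and 9.88, 14.2, 17.6 and 18.6 CPM (log2 fold change -0.96 ± 0.22, edgeR adjusted p = 0.00557). The other was Ctsl, which encodes a lysosomal protease.

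Most tested interferon-stimulated genes rose. Interferons act through transcription factors that bind a repeat of GAAA letters in promoters, and their targets include sensors of viral RNA and guanylate-binding proteins. Of 48 listed genes, 35 were tested, and 26 were higher and 1 lower, with a median log2 fold change of 1.66 (the same with 2 members at 3 or fewer counts in a group set to their bound) and daily medians between 1.30 and 1.52. The promoters of 3 raised members are printed to show such repeats, taken from RefSeq on GRCm38.p6, the patched release of the mm10 assembly. Each is the 250 bases before an annotated start, 5′ to 3′ on the gene's strand, and capitals mark matches to GAAANNGAA on either strand, overlapping matches joined.
Gbp2, chr3:142620413-142620662, plus strand: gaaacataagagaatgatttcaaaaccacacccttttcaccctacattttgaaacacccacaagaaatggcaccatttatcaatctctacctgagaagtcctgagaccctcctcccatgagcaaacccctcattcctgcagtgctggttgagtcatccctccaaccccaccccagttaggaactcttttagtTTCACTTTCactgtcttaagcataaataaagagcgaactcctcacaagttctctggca
Gbp3, chr3:142559794-142560043, plus strand: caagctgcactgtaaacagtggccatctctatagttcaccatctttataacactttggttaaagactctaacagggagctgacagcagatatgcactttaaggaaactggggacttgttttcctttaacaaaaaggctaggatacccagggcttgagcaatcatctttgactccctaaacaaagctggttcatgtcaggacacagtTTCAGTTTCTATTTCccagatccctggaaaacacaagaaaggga
Ifih1, chr2:62646256-62646505, minus strand: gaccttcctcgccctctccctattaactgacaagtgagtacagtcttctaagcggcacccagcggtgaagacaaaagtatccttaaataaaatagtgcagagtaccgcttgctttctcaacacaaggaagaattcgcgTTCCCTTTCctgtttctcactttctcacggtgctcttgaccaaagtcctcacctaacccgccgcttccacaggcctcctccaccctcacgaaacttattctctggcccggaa
These letters were found in 7.13% of the 32851 promoters of this length in the table, in 5.90% of the promoters of tested genes, in 6.31% of those of genes called higher and in 8 of 25 promoters (32.0%) of the raised interferon-stimulated genes, of which 21 of 26 had a promoter in the table. Some listed members that were not raised also held these letters, among them Ifit1, Rsad2, Trim25 and Gbp7. Others that were not raised, such as Irf1 and Cmpk2, did not. A link between the letters and the rise with alectinib was not tested. A match is a description of the sequence and not a bound site.

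Gbp2, a guanylate-binding protein, had 25, 21, 7 and 21 counts with DMSO and 140, 145, 90 and 267 with alectinib, which is 2.24, 2.45, 0.924 and 3.46 CPM and 12.9, 15.8, 8.47 and 28.9 CPM (log2 fold change 2.84 ± 0.27, edgeR adjusted p = 1.17e-05). Gbp3 had 0, 2, 2 and 3 counts and 19, 14, 27 and 56 counts (edgeR adjusted p = 0.00202). Ifih1 encodes MDA5, a sensor of double-stranded RNA, and was at 1.62, 1.400, 1.98 and 6.096 CPM and 8.87, 10.1, 13.5 and 17.1 CPM (log2 fold change 2.36 ± 0.38, edgeR adjusted p = 0.00081). None of the 3 genes had overlapping groups. Ddx58, the related sensor RIG-I, was at 7.81, 8.98, 12.5 and 14.8 CPM and 34.1, 42.5, 36.7 and 57.8 CPM (log2 fold change 1.97 ± 0.24, edgeR adjusted p = 8.01e-05). Xaf1, an antagonist of XIAP, was at 0.987, 1.17, 0.924 and 5.93 CPM and 14.04, 15.8, 20.5 and 35.4 CPM (log2 fold change 3.55 ± 0.31, edgeR adjusted p = 7.96e-06). Parp12 and Parp14, interferon-induced ADP-ribosyltransferases, had log2 fold changes of 2.13 ± 0.21 and 2.94 ± 0.36 (edgeR adjusted p = 1.99e-05 and 8.01e-05).

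From day 1 to day 5 the median change in level of the interferon list was 0.91 on the log2 scale in DMSO and 1.42 with alectinib. Ifit2 had 8, 2, 2 and 4 counts with DMSO and 25, 39, 109 and 93 with alectinib (log2 fold change 3.58 ± 0.59, edgeR adjusted p = 0.000643). Oasl1, the 1 member that fell, was at 7.99, 15.9, 28.4 and 65.1 CPM with DMSO and 4.34, 3.27, 6.87 and 5.63 CPM with alectinib (log2 fold change -2.19 ± 0.43, edgeR adjusted p = 0.00196). Several classical members were too low to test, among them Mx1 with at most 6 counts and Rsad2 with at most 7 in any EA3 library. Of 19 tested MHC class I presentation genes, 6 were higher and 0 lower (median 0.27), but 3 higher without the day block. Tapbp, which encodes tapasin, was at 49.2, 98.9, 122 and 128 CPM and 229, 262, 196 and 305 CPM (log2 fold change 1.39 ± 0.24, edgeR adjusted p = 0.000926), and shares 24.9% of its exon bases with a gene on the other strand.

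Chemokines, cytokines and complement were raised in part. Of 28 tested members of 36, 13 were higher and 6 lower (median 0.89). Without day 2, 8 were called higher and 4 lower, and without day 5, 10 and 2. Of the 19 members with at least 10 counts in every EA3 library, 7 were higher and 6 lower. Csf1, the macrophage growth factor on chromosome 3 from 107741048 to 107760469, was at 60.7, 43.5, 48.8 and 50.7 CPM with DMSO and 444, 579, 607 and 774 CPM with alectinib, the lowest alectinib library far above the highest DMSO library (log2 fold change 3.54 ± 0.27, edgeR adjusted p = 2.97e-06). Tgfb2, on chromosome 1 from 186622792 to 186705989, was at 2.42, 1.75, 3.56 and 1.81 CPM and 82.7, 96.7, 80.1 and 109.6 CPM (log2 fold change 5.26 ± 0.38, edgeR adjusted p = 2.97e-06). Tgfb3 also rose, at 7.45, 8.51, 8.58 and 9.39 CPM and 25.2, 47.5, 37.7 and 93.8 CPM (log2 fold change 2.42 ± 0.30, edgeR adjusted p = 0.0001). Tgfb1 went the other way, at 73.8, 124, 167 and 300.4 CPM and 59.5, 64.01, 83.5 and 67.3 CPM (log2 fold change -1.10 ± 0.25, edgeR adjusted p = 0.00482). Il18, an inflammasome cytokine, had 0, 1, 2 and 1 counts with DMSO and 90, 43, 11 and 70 with alectinib (edgeR adjusted p = 0.000214).

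Ccl7, a monocyte chemokine, had 2, 3, 1 and 5 counts with DMSO and 14, 47, 181 and 110 with alectinib (log2 fold change 4.29 ± 0.75, edgeR adjusted p = 0.00091). Ccl2 was at 5.11, 20.3, 13.5 and 5.602 CPM and 15.1, 34.4, 84.1 and 38.4 CPM, with overlapping groups (log2 fold change 1.92 ± 0.67, edgeR adjusted p = 0.0443), and the call was lost without day 1, 2, 3 or 5 (0.0827, 0.0533, 0.151 and 0.145). Ccl5 was at 0, 0.233, 0.528 and 1.81 CPM and 0.739, 1.64, 3.86 and 4.76 CPM (log2 fold change 2.49 ± 0.74, edgeR adjusted p = 0.0222), and the call was lost without day 1, 2 or 3 (0.0553, 0.0739 and 0.0794) and without the day block (0.0552). Cxcl10, a chemokine for T cells, was at 0.628, 0.933, 4.22 and 6.096 CPM and 7.48, 7.85, 6.31 and 6.92 CPM. Its groups did not overlap, but it did not pass (log2 fold change 1.72 ± 0.68, edgeR adjusted p = 0.0687), though it did without day 5 (0.045). Cxcl9 had 0 counts in all 8 libraries. The neutrophil chemokine Cxcl5 was at 156, 411, 160.2 and 361 CPM and 551, 769, 833 and 1400.0 CPM (log2 fold change 1.77 ± 0.41, edgeR adjusted p = 0.00524).

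The alectinib library of day 5 was far above the others for several secreted proteins. C3, the central complement component, was at 55.5, 131, 86.7 and 702 CPM with DMSO and 255, 757, 389 and 7242 CPM with alectinib (log2 fold change 2.56 ± 0.50, edgeR adjusted p = 0.00208). Saa3, an acute-phase protein, was at 1.26, 5.48, 0.132 and 6.26 CPM and 5.17, 38.7, 37.5 and 609 CPM (log2 fold change 4.51 ± 0.83, edgeR adjusted p = 0.00142). Cxcl12 was at 5.83, 0.816, 2.24 and 5.77 CPM and 20.05, 30.2, 7.62 and 160.2 CPM (log2 fold change 3.31 ± 0.87, edgeR adjusted p = 0.0165), a call lost without day 2 (0.0726) or day 5 (0.0729). Both C3 and Saa3 were higher with alectinib on 4 of 4 days. Of 13 tested complement genes 6 were higher and 0 lower (median 0.66), and Masp1, a protease of the lectin pathway, rose without such a jump, at 6.73, 5.48, 13.1 and 2.64 CPM and 55.98, 61.7, 97.9 and 68.6 CPM (log2 fold change 3.45 ± 0.28, edgeR adjusted p = 5.2e-06). The same library held 325 counts of Slc34a2 and 80 of Sftpd, genes of alveolar type 2 cells, against at most 8 and 4 in the other alectinib libraries, and 117 counts of Postn and 223 of Col3a1, genes of fibroblasts, against at most 7 and 9. The DMSO library of day 5 held 35 counts of Sftpd and 1 of Slc34a2, against at most 3 and 0 on the other DMSO days.

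**Figure D4:**
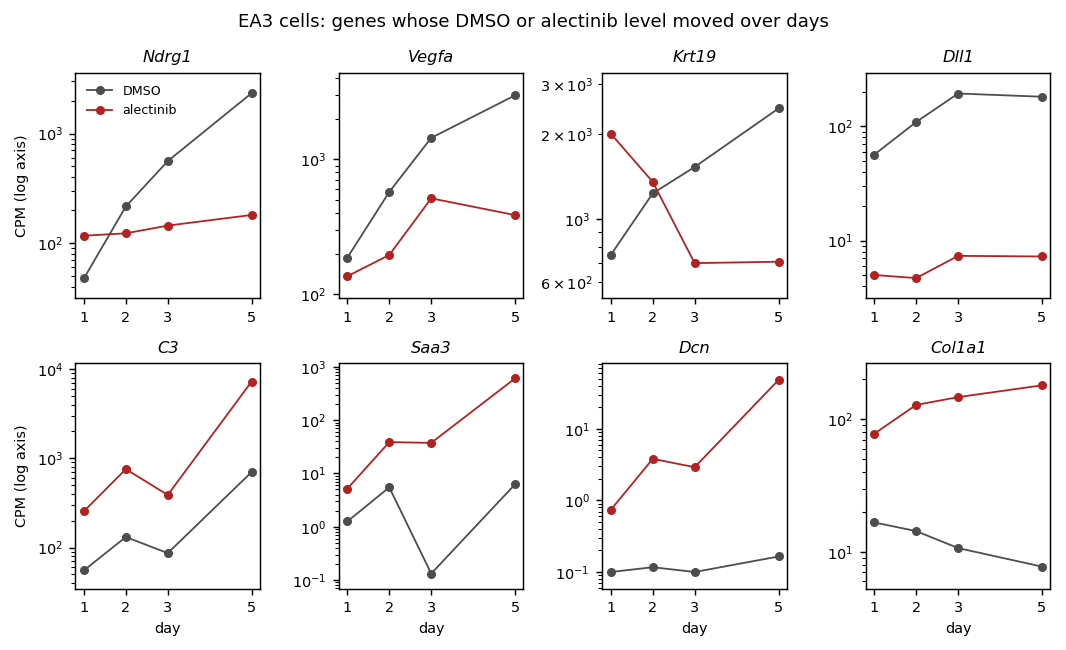
CPM on a log axis against day for 8 genes in EA3, with 1 library per point, DMSO in grey and alectinib in red, and libraries with 0 counts drawn at 0.1 CPM. In DMSO, Ndrg1, Vegfa, Krt19 and Dll1 were higher on day 5 than on day 1. C3, Saa3 and Dcn were highest in the alectinib library of day 5, and Col1a1 was apart on every day.

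Most contractile genes rose, and so did fibroblast markers, whose summed level is given above. Of 12 tested contractile genes of 14, 8 were higher and 0 lower (median log2 fold change 1.53, or 1.43 with bounds for the 4 members at 3 or fewer counts in a group). Acta2, smooth muscle actin, had 0, 1, 0 and 0 counts with DMSO and 25, 87, 151 and 253 with alectinib (edgeR adjusted p = 0.000881). Myl9, a myosin light chain, had 0, 0, 1 and 0 counts with DMSO and 62, 79, 259 and 147 with alectinib (edgeR adjusted p = 1.26e-05), and Cnn1, calponin, 0, 0, 1 and 0 and 1, 16, 91 and 16 (edgeR adjusted p = 0.00071). No fold is given for these 3 genes, since the DMSO libraries hold 1 count in all. Tpm1, a tropomyosin abundant in both treatments, was at 883, 869, 678 and 671 CPM and 2557, 2339, 2185 and 1353 CPM (log2 fold change 1.42 ± 0.16, edgeR adjusted p = 4.63e-05), and Cald1, caldesmon, at 553, 464, 929.9 and 474 CPM and 1794, 2005, 2469 and 1432 CPM (log2 fold change 1.70 ± 0.25, edgeR adjusted p = 0.000261). Their groups did not overlap.

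Of 28 tested collagens and fibrous matrix genes of 33, 13 were higher and 1 lower (median 0.62, unchanged with bounds for 4 low members). Col1a1, fibrillar collagen, had 186, 123, 81 and 47 counts with DMSO and 842, 1177, 1561 and 1666 with alectinib (log2 fold change 3.40 ± 0.52, edgeR adjusted p = 0.000411). Col12a1 was at 2.51, 1.87, 2.24 and 4.78 CPM and 31.1, 60.3, 51.3 and 152 CPM (log2 fold change 4.53 ± 0.33, edgeR adjusted p = 2.97e-06), and Sparc, a matrix glycoprotein, at 281, 284, 307 and 143 CPM and 764, 888, 880.4 and 1153 CPM (log2 fold change 1.89 ± 0.23, edgeR adjusted p = 7.88e-05). Dcn, decorin, had 0, 1, 0 and 1 counts and 8, 35, 31 and 447 counts, mostly from day 5. Fibroblast markers moved with both the contractile and the matrix genes, with 5 of 6 tested markers of 10 higher. The matrix list also holds Col1a1, Col1a2, Col3a1 and Dcn, 4 of these 5, and the fifth is Pdgfrb. The median over the 6 tested was 5.01, or 2.89 with bounds for the 3 members at 3 or fewer counts in a group. Col3a1, Dcn and Pdgfrb had at most 1 count in each DMSO library, so within EA3 they could pass the filter only through alectinib libraries. With at least 10 counts in every EA3 library, 1 marker was tested, and it was higher. The part of fibroblast markers in the contractile and matrix results was not tested. Without day 5, 2 fibroblast markers and 11 matrix genes were called higher.

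Of 16 YAP and TEAD target genes tested, 9 were higher and 2 lower (median 0.71). Ccn1, a matricellular protein, was at 83.3, 62.9, 105 and 80.4 CPM and 743, 636, 486 and 278 CPM (log2 fold change 2.62 ± 0.32, edgeR adjusted p = 8.51e-05), and Amotl2, an angiomotin that restrains YAP, at 106, 79.2, 88.5 and 77.9 CPM and 469.7, 447, 446 and 277 CPM (log2 fold change 2.20 ± 0.31, edgeR adjusted p = 0.000228). Both were at their lowest alectinib level on day 5. Mesenchymal transition genes were mixed, with 5 of 18 higher and 4 lower (median -0.08), and 2 were called lower without day 1 or day 5. Cdh2, N-cadherin, was at 149, 68.5, 47.4 and 52.4 CPM and 340.3, 393, 232 and 216 CPM (log2 fold change 2.01 ± 0.23, edgeR adjusted p = 6.01e-05), and Thbs1, thrombospondin, at 249.5, 266, 568 and 491 CPM and 2170.3, 3016, 5495 and 3241 CPM (log2 fold change 3.16 ± 0.41, edgeR adjusted p = 0.000133). Snai1 and Twist1, factors of that transition, were among the 4 lower genes.

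Lineage genes changed without one direction. Aqp8, a water channel of the gut on chromosome 7 from 123462291 to 123468004, had 424, 661, 603 and 300 counts with DMSO and 5, 1, 1 and 1 with alectinib (edgeR adjusted p = 1.57e-06), and no fold is given, since 3 of the 4 alectinib libraries held 1 count. Cdh17, the liver-intestine cadherin on chromosome 4 from 11758147 to 11817895, was at 119, 105, 125 and 78.6 CPM and 19.03, 8.29, 12.9 and 6.28 CPM (log2 fold change -3.29 ± 0.18, edgeR adjusted p = 3.47e-07). Of 20 tested gut and gastric genes of 32, 4 were higher and 4 lower. Muc5b, an airway mucin, was at 26.4, 56.9, 322 and 367 CPM and 3.14, 3.16, 3.11 and 29.00 CPM (log2 fold change -4.33 ± 0.63, edgeR adjusted p = 0.000313). Foxj1, the factor of ciliated cells, rose, at 6.28, 8.98, 2.903 and 3.79 CPM and 65.9, 79.9, 47.1 and 19.5 CPM (log2 fold change 3.24 ± 0.33, edgeR adjusted p = 2.14e-05). Foxa2 fell, at 26.7, 32.7, 50.7 and 50.4 CPM and 10.6, 10.4, 12.7 and 17.4 CPM (log2 fold change -1.63 ± 0.24, edgeR adjusted p = 0.000292). Of 13 tested alveolar type 1 genes 5 were higher and 6 lower, or 3 and 3 without day 5. Col4a3, a basement membrane collagen in that list, was at 5.65, 5.36, 8.05 and 3.295 CPM and 55.5, 79.6, 78.5 and 21.5 CPM (log2 fold change 3.31 ± 0.28, edgeR adjusted p = 8.81e-06).

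Notch, Wnt and BMP genes were mixed as lists, with single members that changed much. Dll1, a Notch ligand on chromosome 17 from 15367354 to 15376872, was at 56.5, 109, 194 and 182 CPM with DMSO and 4.99, 4.69, 7.34 and 7.25 CPM with alectinib (log2 fold change -4.36 ± 0.24, edgeR adjusted p = 3.81e-07). It shares 20.5% of its exon bases with a gene on the other strand. Rbpj, the DNA-binding partner of Notch, was at 197, 144, 234 and 192 CPM and 76.3, 78.7, 80.9 and 84.4 CPM (log2 fold change -1.24 ± 0.21, edgeR adjusted p = 0.000686). Of 21 tested Notch genes 5 were higher and 5 lower, and of 28 tested Wnt genes 12 were higher and 6 lower (medians 0.11 and 0.94). Without day 2 or day 5, 3 Notch genes were called higher, and without day 3, 3 Wnt genes were called lower. Grem1, a secreted BMP antagonist, had 30, 58, 1236 and 438 counts with DMSO and 2, 1, 65 and 6 with alectinib (log2 fold change -5.33 ± 0.50, edgeR adjusted p = 1.12e-05). Id3, a target of BMP signaling, was at 23.2, 32.3, 20.8 and 32.95 CPM and 78.3, 89.2, 80.7 and 154 CPM (log2 fold change 1.85 ± 0.24, edgeR adjusted p = 0.000115). Of 33 TGF-beta and BMP genes 11 were higher and 6 lower (median 0.20).

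Hpgd, the enzyme that degrades prostaglandins, had 2, 4, 2 and 3 counts with DMSO and 369, 365, 229 and 1191 with alectinib (edgeR adjusted p = 5.61e-06). The retinaldehyde dehydrogenases Aldh1a1 and Aldh1a3 moved apart. Aldh1a1 was at 1.97, 8.98, 7.52 and 6.43 CPM and 35.4, 55.4, 120.2 and 131 CPM (log2 fold change 3.76 ± 0.46, edgeR adjusted p = 8.28e-05), and Aldh1a3 at 13.5, 31.7, 88.9 and 137 CPM and 0.277, 0.109, 3.58 and 2.27 CPM (log2 fold change -5.56 ± 0.59, edgeR adjusted p = 3.57e-05). Neither gene's groups overlapped. Of 16 tested aldehyde dehydrogenases 5 were higher and 5 lower, and of 9 tested prostaglandin genes 3 and 3.

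Among genes whose mean log2 CPM was 3 or more and whose ratio kept 1 sign over the days, Serpinb9b rose the most. Serpinb9b, of a serpin family that inhibits granzymes, was at 0.987, 0.816, 0.924 and 0.3295 CPM and 70.4, 130.3, 83.8 and 33.2 CPM (log2 fold change 6.62 ± 0.35, edgeR adjusted p = 3.47e-07). Serpinb9b has close paralogs, so its counts are uncertain. Tgfb2 and the aggrecanase Adamts5 followed, the latter at 2.15, 3.03, 1.72 and 4.78 CPM and 64.1, 95.5, 168 and 123 CPM (log2 fold change 5.23 ± 0.41, edgeR adjusted p = 1.55e-05). Atoh8, a basic helix-loop-helix factor, was at 8.79, 2.22, 1.06 and 1.32 CPM and 57.1, 68.3, 87.8 and 132 CPM (log2 fold change 4.85 ± 0.77, edgeR adjusted p = 0.000543), and Ccn4, a matricellular Wnt target, at 3.59, 3.97, 9.37 and 1.48 CPM and 86.8, 97.3, 139 and 71.6 CPM (log2 fold change 4.57 ± 0.33, edgeR adjusted p = 2.97e-06). Other large rises were those of Col11a1 (4.42), Msrb3 (4.49), the calcium channel gene Cacna1g (4.49), the scaffold gene Akap12 (4.47) and Timp3 (4.16), an inhibitor of metalloproteinases that shares 21.3% of its exon bases with a gene on the other strand.

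The largest falls of that kind included Slc14a1, a urea transporter at 30.96, 33.5, 140.4 and 62.8 CPM and 1.02, 0.872, 2.45 and 0.433 CPM (log2 fold change -5.72 ± 0.43, edgeR adjusted p = 5.2e-06). Prl2c3, of the proliferin family, was at 38.5, 50.8, 294 and 199 CPM and 7.21, 2.29, 1.600 and 0.974 CPM (log2 fold change -5.35 ± 0.84, edgeR adjusted p = 0.000494). It has near-identical copies, so its counts are uncertain. Mrc1, the mannose receptor that macrophages also use, was at 223, 268, 256 and 245 CPM with DMSO and 22.3, 8.83, 8.94 and 7.36 CPM with alectinib (log2 fold change -4.52 ± 0.43, edgeR adjusted p = 1.38e-05), and the summed immune markers given above were also lower with alectinib on days 2, 3 and 5. Their part in the fall of Mrc1 was not tested. Acan, aggrecan, was at 239, 174, 847 and 505 CPM and 42.4, 14.7, 42.1 and 2.81 CPM (log2 fold change -4.24 ± 0.68, edgeR adjusted p = 0.000626). Disp2 and Stac fell by 4.24 and 4.02 on the log2 scale, and none of these 6 genes had overlapping groups.

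The alectinib effect in EA3 was compared with that in EA1 and in EA2 within the same fit. The comparisons share the EA3 libraries and are given side by side. EA3 lay above EA1 for 68 genes, 0.477% of those tested, and below for 187, 1.31%. EA3 lay above EA2 for 239 genes, 1.68%, and below for 169, 1.18%. The effect was above both lines for 18 genes, below both for 24 and between them for 7. These counts moved when a day was left out, which also leaves fewer pairs. Without day 1, EA3 lay above EA1 for 51 genes and below for 155, and above EA2 for 221 and below for 211. Without day 2, EA3 lay above EA1 for 21 genes and below for 90, and above EA2 for 96 and below for 105. Without day 3, EA3 lay below EA1 for 88 and below EA2 for 98, and without day 5 it lay above EA2 for 147 and below for 88. The genes described are some of those the naming rule lists, picked with their values known. With the day 7 pair added, 15 of the 32 differences described below were lost.

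Dll1 fell in EA3 and was called in neither other line. The log2 fold change of -4.36 in EA3 stood against 0.04 in EA1 and 0.27 in EA2, a difference of -4.40 ± 0.32 and -4.63 ± 0.33 (SE, edgeR adjusted p = 3.58e-05 and 1.48e-05). In DMSO the mean Dll1 level was 10.4 CPM in EA1 and 5.61 CPM in EA2. Akap5, a kinase anchor of the alveolar type 1 list on chromosome 12 from 76324891 to 76334153, had 6, 2, 4 and 2 counts with DMSO and 204, 262, 126 and 98 with alectinib in EA3. Its mean level was 0.969 and 0.2196 CPM in EA1 and 0.855 and 0.675 CPM in EA2 (differences 7.47 ± 0.74 and 5.71 ± 0.70, edgeR adjusted p = 0.00041 and 0.00113). The fitted sizes for Akap5 rest on 2 to 6 counts per EA3 DMSO library and on a mean in EA1 with alectinib below the 3-count floor of 0.256 to 0.365 CPM there, and are not exact. Csf1 rose in all 3 lines and most in EA3, with 3.54 against 1.35 in EA1 and 2.13 in EA2 (differences 2.19 ± 0.35 and 1.41 ± 0.35, edgeR adjusted p = 0.00664 and 0.0456), but the difference from EA2 was lost without day 2, 3 or 5 (0.115, 0.0941 and 0.12).

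Sema3b, a semaphorin, was at 2.87, 4.32, 4.62 and 10.4 CPM and 13.9, 23.99, 38.6 and 39.4 CPM in EA3, with differences of 1.97 ± 0.29 from EA1 and 2.17 ± 0.30 from EA2 (edgeR adjusted p = 0.00447 and 0.00201). Slco3a1, an organic anion transporter, was at 3.77, 3.27, 4.62 and 5.27 CPM and 14.04, 22.9, 23.4 and 34.1 CPM, with differences of 2.00 ± 0.36 and 3.33 ± 0.35 (edgeR adjusted p = 0.015 and 0.000571), the first of which was lost without day 2 (0.0525). Glipr1 rose in all 3 lines, by 2.61, 1.00 and 1.12 in EA3, EA1 and EA2, and shares 22.8% of its exon bases with Krr1 on the other strand (differences 1.61 ± 0.29 and 1.49 ± 0.29, edgeR adjusted p = 0.0149 and 0.0176). All 3 genes had a higher fold change in EA3 than in either other line.

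Gpc1, a glypican, and Tsku, a secreted leucine-rich protein, rose in EA1 and EA2 and were not called in EA3. Gpc1 shares 18.9% of its exon bases with Ankmy1 on the other strand. Its log2 fold changes were -0.36 in EA3, 1.04 in EA1 and 1.14 in EA2 (differences -1.39 ± 0.20 and -1.50 ± 0.20, edgeR adjusted p = 0.00395 and 0.00166). For Tsku, lower in EA3 without day 5 (-0.78, edgeR adjusted p = 0.0222), they were -0.49, 1.54 and 1.31 (differences -2.03 ± 0.33 and -1.80 ± 0.33, edgeR adjusted p = 0.00793 and 0.0122). Angptl4, a lipase inhibitor that hypoxia raises, was at 27.9, 133, 269.6 and 471 CPM and 19.1, 28.9, 70.9 and 129 CPM in EA3 and had log2 fold changes of -1.66, 0.50 and 1.69 (differences -2.16 ± 0.41 and -3.35 ± 0.41, edgeR adjusted p = 0.019 and 0.00113). The difference of Angptl4 from EA1 was lost without day 2 (0.064) or day 3 (0.0607). Grem1 fell in EA3 and EA2, and its differences were -6.68 ± 0.71 from EA1 and -2.44 ± 0.59 from EA2 (edgeR adjusted p = 0.000529 and 0.0442), with a mean of 1.13 CPM in EA1 with DMSO. The difference of Grem1 from EA2 was lost without day 2 (0.0896), day 3 (0.0581) or day 5 (0.163).

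**Figure D5:**
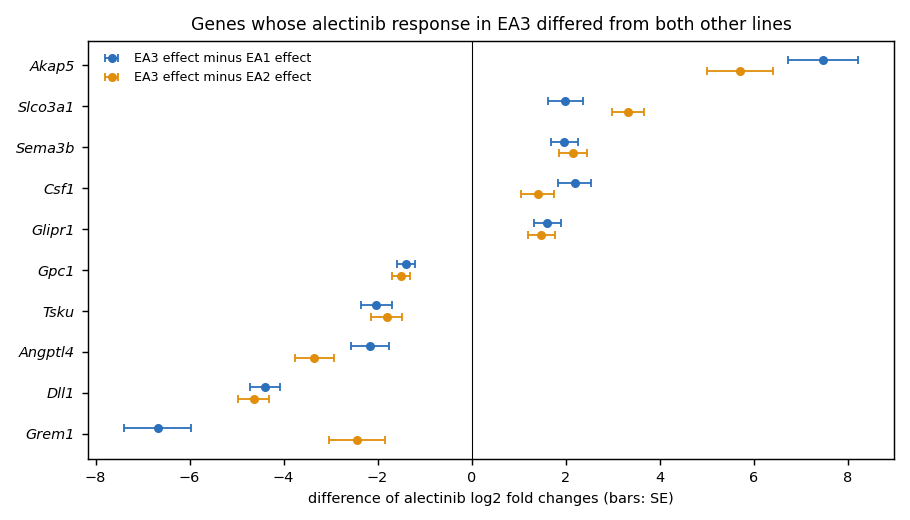
Difference of the alectinib log2 fold change between EA3 and EA1 (blue) and between EA3 and EA2 (orange) for 10 genes that differed from both, with SE bars from the edgeR fit of 24 libraries. The size for Akap5 rests on few counts and is not exact. Akap5, Slco3a1, Sema3b, Csf1 and Glipr1 lie above 0 in both comparisons, and Gpc1, Tsku, Angptl4, Dll1 and Grem1 below 0.

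Other genes differed from EA1 and were picked with their values known. Slc16a3 fell in EA3 and rose in EA1 from 3.13 to 7.53 CPM (difference -3.37 ± 0.42, edgeR adjusted p = 0.00212). Foxa2 fell in EA3 and had a log2 fold change of 0.58 in EA1 (difference -2.21 ± 0.34, edgeR adjusted p = 0.00545). Btc, Aldh1a3 and Aqp8 had lower fitted fold changes in EA3, with differences of -2.79 ± 0.40, -4.42 ± 0.73 and -4.75 ± 0.70 (edgeR adjusted p = 0.00436, 0.01 and 0.00458). The size for Aqp8 rests on the few counts with alectinib in EA3 and is not exact. Cxcl15 rose less in EA3 (difference -4.79 ± 0.88, edgeR adjusted p = 0.0155) and Col12a1 rose more (difference 2.62 ± 0.41, edgeR adjusted p = 0.0063), though the DMSO mean of Col12a1 was 205 CPM in EA1 and 2.85 CPM in EA3.

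Other genes differed from EA2. Cdh17 fell in EA3 and rose in EA2 from 17.7 to 36.2 CPM (difference -4.34 ± 0.24, edgeR adjusted p = 1.01e-06). The amino acid transporters Slc7a11 and Slc7a5 had lower fold changes in EA3, with differences of -2.43 ± 0.40 and -2.38 ± 0.38 (edgeR adjusted p = 0.00726 and 0.00606). Slc7a5 was at 216, 177, 356 and 264 CPM and 98.4, 66.5, 97.96 and 40.03 CPM in EA3 and at a mean of 181 and 295 CPM in EA2, where its own change was not called. Spred3 fell less in EA3 (difference 1.78 ± 0.34, edgeR adjusted p = 0.0159). Ifit2 rose in EA3 and had a log2 fold change of -0.44 in EA2 (difference 4.02 ± 0.77, edgeR adjusted p = 0.0157).

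The change of the alectinib effect over time was fitted per doubling of days within EA3. No gene was called with a rising effect, 0% of those tested, and 7 genes were called with a falling one, 0.0491%. By edgeR 1876 genes had an unadjusted p under 0.05, and DESeq2 called 94 rising and 255 falling. Ndrg1, a hypoxia and stress gene on chromosome 15 from 66929318 to 66969640, was at 47.5, 216, 560.0 and 2339 CPM with DMSO and 117, 123, 144 and 180.5 CPM with alectinib. Its log2 ratio went from above to below 0, with a slope of -2.13 ± 0.20 log2 units per doubling of days (edgeR adjusted p = 0.00644). Nupr1, a stress-induced nuclear protein, was at 27.8, 170.2, 259 and 472 CPM and 138, 199, 139 and 106 CPM (slope -1.93 ± 0.23, edgeR adjusted p = 0.0265), and Krt19, a keratin, at 750.0, 1236, 1532 and 2465 CPM and 2008, 1357, 701 and 709 CPM (slope -1.44 ± 0.19, edgeR adjusted p = 0.0387). Lgals3, galectin 3, was at 180.1, 266, 224 and 633 CPM and 276, 164, 104 and 80.1 CPM (slope -1.48 ± 0.21, edgeR adjusted p = 0.0459). Mmp10, Rusc2 and Efna1 were the other 3, with slopes of -2.29 ± 0.31, -1.49 ± 0.17 and -1.11 ± 0.15 (edgeR adjusted p = 0.0387, 0.0178 and 0.0387). In all 7 the DMSO level was higher on day 5 than on day 1, and none of the 7 was called without day 1 or without day 5.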

How the data were processed

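Poly(A) RNA was sequenced as paired reads from stranded libraries. Per the methods of the study and the submitters' processing notes, the authors checked reads with FastQC, trimmed adapters with bbduk, mapped to mm10 with STAR and deposited its raw count per gene, without normalization. The annotation release and strand column are not given in the sources used here. Of 55415 rows, 24 are named by a number and hold 0.129% to 0.201% of counts, and they were dropped.

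Counts of 24 libraries (3 lines, days 1, 2, 3 and 5) were fitted in R 4.3.3 with edgeR 4.0.16: TMM, filterByExpr by line and treatment, quasi-likelihood test with robust estimation, 12 blocks of line and day, and an alectinib term per line. Contrasts were the EA3 effect, its differences from EA1 and EA2, and, in a second fit, its change per doubling of days. Adjusted p-values follow Benjamini and Hochberg over all 14264 tested genes, with a threshold of 0.05. Pairs come from the day in the labels. Deviations of the paired EA3 libraries from their group means correlated at 0.392, 0.00388, 0.249 and 0.308. List levels use log2 CPM with a prior count of 2. The scripts were tested on simulated data.

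The members and gene lists were chosen with earlier results of these data known, and lists were written from general knowledge. The rule named the 12 largest rises and falls that kept 1 sign over the days with a mean log2 CPM of 3 or more, the 5 smallest p-values of each list with list genes that differed between lines, 6 genes above and 6 below both other lines, 5 by slope, and genes the study discusses. Some of them are described. Fos, Epha4, Hbegf, Ereg, Nrg1, Pdgfrb, Tgfa, Met, Egfr, Vegfa, Atf4, Myc, Tfeb, Ctsl, Gbp3, Ifih1, Oasl1, Tgfb1, Acta2, Cnn1, Snai1, Twist1, Efna1, Krt19, Slc34a2, Sftpd, Postn, Col3a1, Mx1 and Rsad2 were chosen after their values were seen. Alternatives were DESeq2 1.42.0, its size factors, library size alone, no filter, at least 10 counts in every EA3 library, no block, EA3 alone, day 7 added, each day left out and a limit of 1 on the size of the log2 fold change. Places are from the GENCODE annotation of mm10. Some items are not reported here.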

Additional observations from a re-analysis of the deposited data

Results flagged for a closer look

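Of 254 groups of 4 libraries looked at, 32 had 1 library far from the other 3. Chance flags about 1 in 20 groups of independent replicates. That rate does not apply here, since the groups are 4 different days of genes picked in part by their values. The alectinib library of day 5 was the high one in 13 of the 32. In it, C3 stood at 7242 CPM, Saa3 at 609 CPM, Cacna1g at 700.2 CPM, Pgk1 at 693 CPM, Cxcl12 at 160.2 CPM, Id3 at 154 CPM, Cxcl15 at 141 CPM, Hpgd at 129 CPM, Tsku at 75.4 CPM, Dcn at 48.4 CPM, Fgfr2 at 34.3 CPM, Muc5b at 29.0 CPM and Btc at 11.8 CPM. The same library was the low one for Amotl2 at 277 CPM, Epha4 at 85.5 CPM and Shmt2 at 52.5 CPM. With alectinib on day 3, Timp3 at 346 CPM, Dusp6 at 49.1 CPM, Areg at 9.69 CPM and Grem1 at 6.12 CPM were high, and on day 1 Mrc1 at 22.3 CPM and Aqp8 at 0.462 CPM.

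With DMSO on day 5, C3 at 702 CPM, Ifih1 at 6.10 CPM and Xaf1 at 5.93 CPM were high and Sparc at 143 CPM was low. With DMSO on day 3, Slc7a11 at 652 CPM and Col11a1 at 6.20 CPM were high, and on day 1 Atoh8 at 8.79 CPM. Single counts gave the flags of Myl9 and Cnn1 at 0.132 CPM on day 3 and of Acta2 at 0.117 CPM on day 2.

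By edgeR's quasi-likelihood test of the difference with Benjamini-Hochberg adjustment, the alectinib effect in EA3 lay above that in EA1 for 68 and below for 187 of 14264 genes, and above that in EA2 for 239 and below for 169. The 32 pairs of gene and line given here are the differences described, picked with their values known. Differences are log2 fold changes, EA3 minus the other line. Above both EA1 and EA2 lay Akap5 (7.47 and 5.71), Slco3a1 (2.00 and 3.33), Csf1 (2.19 and 1.41), Sema3b (1.97 and 2.17) and Glipr1 (1.61 and 1.49). The size for Akap5 rests on few counts. Below both lay Grem1 (-6.68 and -2.44), Dll1 (-4.40 and -4.63), Angptl4 (-2.16 and -3.35), Tsku (-2.03 and -1.80) and Gpc1 (-1.39 and -1.50). Against EA1 alone, Col12a1 differed by 2.62, Foxa2 by -2.21, Btc by -2.79, Slc16a3 by -3.37, Aldh1a3 by -4.42, Aqp8 by -4.75 and Cxcl15 by -4.79. Against EA2 alone, Ifit2 differed by 4.02, Spred3 by 1.78, Slc7a5 by -2.38, Slc7a11 by -2.43 and Cdh17 by -4.34.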

How the results depend on the processing

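Depth limits genes at or under 3 counts, and days stand in for replicates. Of 121 genes with an EA3 effect considered, 115 were called, and 108 of these kept sign and call in every alternative that tested them, the size limit aside. Most were picked from the same fit or after their values were seen, so this share does not describe all called genes. The limit of at least 10 counts in every EA3 library left 91 of the 121. The cause of the changes below was not tested. Leaving out each day in turn gave 1670 to 2192 genes higher and 1570 to 1841 lower in EA3, 21 to 56 above and 88 to 174 below EA1, 96 to 221 above and 88 to 211 below EA2, and 0 rising and 0 to 8 falling per doubling of days. With EA3 fitted alone, 1671 genes were higher and 1540 lower. Among them were 1604 of the 2493 higher and 1482 of the 2157 lower genes of the main fit. A limit of 1 on the size of the log2 fold change left 1414 higher and 1011 lower. Without the filter on low counts, 313 genes lay above and 616 below EA1, 872 above and 550 below EA2, and 19 rose and 59 fell with days. DESeq2 gave 227 and 456 against EA1, 568 and 439 against EA2, and 94 rising and 255 falling. Library size alone gave 379 above EA2 and 3 falling. At least 10 counts gave 2 rising and 22 falling. With day 7 added, 41 lay above EA1, 5 above and 3 below EA2, 10 rose and 35 fell.

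Without the day block that pairs the libraries, 2187 genes were higher and 1979 lower in EA3, 54 above and 142 below EA1, and 208 above and 147 below EA2. Without it the differences of Aldh1a3, Angptl4, Btc and Cxcl15 from EA1 (edgeR adjusted p = 0.126, 0.292, 0.0592 and 0.239) and of Grem1, Slc7a11 and Spred3 from EA2 (0.425, 0.101 and 0.0611) were lost, and the effect on Ndrg1 was called (0.0342). With day 7 added, Cenpa, Ube2c and Angptl4 were not called in EA3 (0.0524, 0.0636 and 0.296), and 15 of the 32 differences described were lost, those of Sema3b, Slco3a1 and Angptl4 from EA1 and of Csf1, Sema3b, Glipr1, Akap5, Grem1, Gpc1, Tsku, Angptl4, Spred3, Slc7a5, Ifit2 and Cdh17 from EA2. Library size alone lost the difference of Grem1 from EA2 (0.0581). Cxcl10 was called with library size alone (0.0472), without the filter (0.00546) and by DESeq2 (0.0345), as was Gpc1 by DESeq2 (0.0321). The log2 fold change of Eml4 ran from -0.52 to 0.03 with each day left out, above 0 without day 3. Mitosis genes lower were 31 of 34 without the filter and 27 with EA3 alone, and cholesterol genes lower were 3 without the block or with day 7 added.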

Other observations

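The day 7 pair labelled EA3, 2 libraries closer to EA2 in their profile, entered only the alternatives with day 7 added. They held 7694291 counts with DMSO and 11511425 with alectinib, and there is no replicate check of their differences. Dusp6 was at 373 CPM with DMSO and 9.99 CPM with alectinib, Etv4 at 105 and 0.762 CPM, and Alk at 168 and 92.6 CPM. Csf1 was at 140.3 and 739 CPM, and Tgfb2 at 1.89 and 55.8 CPM. Dll1, at 56.5 to 194 CPM in the EA3 DMSO libraries of days 1 to 5, was at 19.1 CPM with DMSO and 4.15 CPM with alectinib. Slc16a3, at 212 to 592 CPM in those DMSO libraries, was at 63.6 and 65.0 CPM. The median log2 ratio was -3.41 for MAPK output genes, 0.87 for mitosis genes and 1.56 for cholesterol synthesis genes, against -2.79, -0.81 and -1.55 on day 5 of EA3.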
